A study of Drosophila melanogaster with 3 samples.

Results

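The mitochondrial ribosomal protein genes were taken as every feature whose symbol starts with mRpL, for the large subunit, or mRpS, for the small subunit. They were 73 of 13988 features, 47 of them mRpL and 26 mRpS. The mitochondrial ribosome translates the few messenger RNAs of the mitochondrial genome, which encode subunits of the respiratory chain and of ATP synthase. Its RNAs come from the mitochondrial genome, whereas its proteins are encoded in the nucleus, made in the cytoplasm and imported. In the larval brain, neuroblasts are large, growing neural stem cells, and their neurons no longer divide.

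The study sorted type 1 neuroblast lineages by FACS from brains of Drosophila melanogaster larvae aged 72 to 96 h after egg laying, and profiled single cells with the 10x GEM-X 3′ kit. It had 3 genotypes with 1 library each. The library labelled mud carried Sqh::GFP and mud4 on X with worGal4 and UAS-mCherry::Jupiter on the third chromosome. The nanobody library carried Sqh::GFP with worGal4, UAS-mCherry::Jupiter and UAS-ALDInscuteable RockKinase domain-VhhGFP4-HA on the third chromosome. The control library carried only Sqh::GFP, worGal4 and UAS-mCherry::Jupiter, which the other genotypes also carried. Sqh::GFP is a tagged myosin light chain, and worGal4 drives UAS transgenes in neuroblasts. The number of animals behind each library is not given in the labels.

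A barcode was called a cell from 1000 UMIs (unique molecular identifiers, each counting 1 captured RNA molecule) and 500 genes upwards, with no more than 20% mitochondrially encoded UMIs. There were 15194 in mud, 14415 in nanobody and 14852 in control, holding 113014038, 113544220 and 108519041 UMIs. Of these barcodes, 59 to 78 were shared by each pair of libraries. Cells were gated on UMIs of a marker: dpn at 1 or more (a neuroblast gene), ase at 2 or more with dpn at 0 (a gene of neuroblasts and ganglion mother cells), Hey at 3 or more (a gene of newborn neurons), nSyb at 1 to 9 and nSyb at 10 or more (a neuronal synaptic gene), and repo at 2 or more (a glial gene). The gates held 2173, 11048, 4393, 13467, 2479 and 255 cells over the 3 libraries, and a cell could be in more than 1 gate. Summed neuroblast markers stood at 3229 to 3432 CPM (counts per 1000000 UMIs) in the dpn gates, neuron markers at 9940 to 12390 CPM in the gates with nSyb at 10 or more, and glial markers at 2846 to 4090 CPM in the repo gates, each the highest of the 6 gates. Ganglion mother cell markers stood at 3877 to 4781 CPM in the ase gates but 10532 to 16083 CPM in the nSyb 1 to 9 gates, and newborn neuron markers at 5561 to 6965 CPM in the Hey gates but 11590 to 17343 CPM in the nSyb 1 to 9 gates. Both lists hold pros, which alone reached 9691 to 15304 CPM in the nSyb 1 to 9 gates. The ase and Hey gates are therefore called by their gate gene. Hemocyte markers stood at 6.89 CPM or less in every gate except the Hey gate of mud, at 64.0 CPM.

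Mitochondrial ribosomal protein RNA made up larger shares of UMIs in the dpn and repo gates than in the nSyb gates. Over all cells of a gate the dpn share was the highest, but in cells of 5000 to 15000 UMIs the repo share was 0.409% in mud, 0.400% in nanobody and 0.387% in control, against 0.392%, 0.392% and 0.389% in the dpn gate. The dpn gate had 0.481% in mud, 0.463% in nanobody and 0.438% in control. The ase gate had 0.329% in mud, 0.356% in nanobody and 0.331% in control. The Hey gate had 0.311% in mud, 0.323% in nanobody and 0.306% in control. These 3 ranges did not overlap between the dpn gate and either later gate, while the ase and Hey gates lay close together.

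The nSyb 1 to 9 gate had 0.280% in mud, 0.276% in nanobody and 0.273% in control. The gate with nSyb at 10 or more had 0.282% in mud, 0.276% in nanobody and 0.299% in control. The ranges of both nSyb gates overlapped each other and lay below those of every other gate. The repo gate had 0.409% in mud, 0.435% in nanobody and 0.436% in control, just below the dpn gate. Means over libraries were 0.461% ± 0.0216 for dpn, 0.339% ± 0.0150 for ase, 0.313% ± 0.00864 for Hey, 0.276% ± 0.00323 for nSyb 1 to 9, 0.286% ± 0.0120 for nSyb at 10 or more and 0.427% ± 0.0151 for repo (SD, n = 3 libraries). These 3 libraries differ in genotype, so their spread holds genotype and preparation together.

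**Figure D1:**
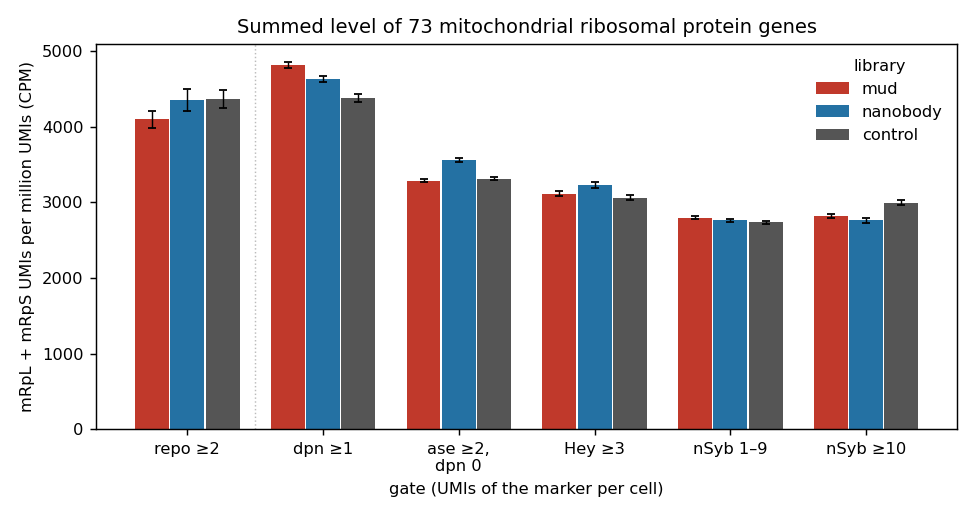
Summed CPM of all 73 genes in each gate, in the libraries mud, nanobody and control; error bars are exact 95% Poisson intervals and cover counting error only. The dpn bars stand highest in mud, at 4809 CPM, and the nSyb bars stand between 2733 and 2991 CPM.

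Barcodes of 20 to 200 UMIs, taken to hold mainly free RNA, had shares of 0.250% in mud, 0.325% in nanobody and 0.322% in control. Both nSyb gates lay above this share in mud and below it in nanobody and control. Nearer to it were the Hey gate in nanobody, at 0.323%, and the ase gate in control, at 0.331%. The part of free RNA in the values of the gates, neuronal or other, was not tested.

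The members differed widely in level. Over all called cells their median was 38.8 CPM, and 2 of 73 lay above 100 CPM. These levels are UMIs of 3′ ends, which are counted once per molecule and were not scaled by transcript length. mRpS5, whose bacterial counterpart helps shape the messenger RNA channel of the small subunit, averaged 235 ± 19.0 CPM (SD, n = 3 libraries). mRpL30, a large-subunit protein, averaged 128 ± 10.8 CPM, and mRpL33 91.3 ± 21.5 CPM. The 6 highest members, which also include mRpS21, mRpS7 and mRpL36, held 21.8% of the UMIs of the group.

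At the low end, mRpL46, mRpL32 and mRpL10 stood between 8.35 and 42.7 CPM in every gate and library. mRpL53 was listed at 0 UMIs throughout, and its exons overlap those of CG33155 on the same strand. mRpL13 and mRpS14 overlap CG10602 and CG32533 in the same way, so their counts are uncertain. In BDGP6.54, 42 members overlap a gene on the opposite strand, including mRpL30, mRpL34, mRpL48, mRpS14 and mRpS22. Whether the counting used strand is not given in the sources used here, so reads of such partners cannot be told apart.

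The members are spread over the genome, with 11 on X, 12 on 2L, 12 on 2R, 17 on 3L and 21 on 3R. Many share a start region with a neighbour transcribed away from them. Of the 72 members detected, 51 (70.8%) have a protein-coding gene starting on the opposite strand within 500 bases upstream, against 2882 of 8093 genes tested (35.6%). mRpS7 is paired in this way with Cdk1, the mitotic kinase, and mRpL55 with ATPsynD, a subunit of ATP synthase. mRpS17 is paired with Nop60B, which pseudouridylates ribosomal RNA, and mRpS11 with Ns1, a nucleolar GTPase. These pairs are examples, and the neighbours of the 51 members were not counted by function.

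The widest comparison set neurons with nSyb at 10 or more against the dpn gate. Summed over the group, the log2 ratio was -0.77 in mud, -0.75 in nanobody and -0.55 in control, with a mean of -0.69 ± 0.12 (SD, n = 3 libraries). edgeR's quasi-likelihood test on the 18 sums (6 gates in 3 libraries, library as block, TMM scaling, 8103 genes) called 61 of the 72 members tested lower at a Benjamini-Hochberg adjusted p under 0.05, where 36.9% of all genes were called lower. It called 2 higher, where 42.2% of all genes were. The median log2 fold change was -0.48 over members and 0.08 over all genes. By subunit, 41 of 46 mRpL and 20 of 26 mRpS genes fell. Scaling moved these values: with plain library sizes the medians were -0.77 and -0.21. There 65 members were lower and 1 higher, where 46.7% and 34.3% of all genes were, and the lower part of all calls was 57.6% in place of 46.6%.

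Depth moved with this result. Median UMIs per cell were 12296 in mud, 13037 in nanobody and 11289 in control in the gate with nSyb at 10 or more, and 9886 in mud, 9196 in nanobody and 12024 in control in the dpn gate. Within the dpn gate the share was 0.526%, 0.514% and 0.463% in cells of at least 15000 UMIs in mud, nanobody and control, and 0.392%, 0.392% and 0.389% in cells of 5000 to 15000 UMIs. Restricted to cells of 5000 to 15000 UMIs in both gates, a window chosen after seeing the data, the summed log2 ratio was -0.54. There 38 members were lower and 6 higher (52.8% and 8.33%), where 36.4% and 39.1% of all genes were. Without the top 6% of cells by UMIs it was also -0.54. There 31 members were lower and 9 higher (43.1% and 12.5%), where 34.0% and 41.0% of all genes were. The lower share thus stood nearer that of all genes, while the higher share stayed well below theirs. Cells of at least 15000 UMIs, outside the window, were 283 of 862 in mud, 241 of 854 in nanobody and 178 of 457 in control in the dpn gate. In the gate with nSyb at 10 or more they were 291 of 927, 279 of 730 and 232 of 822.

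**Figure D2:**
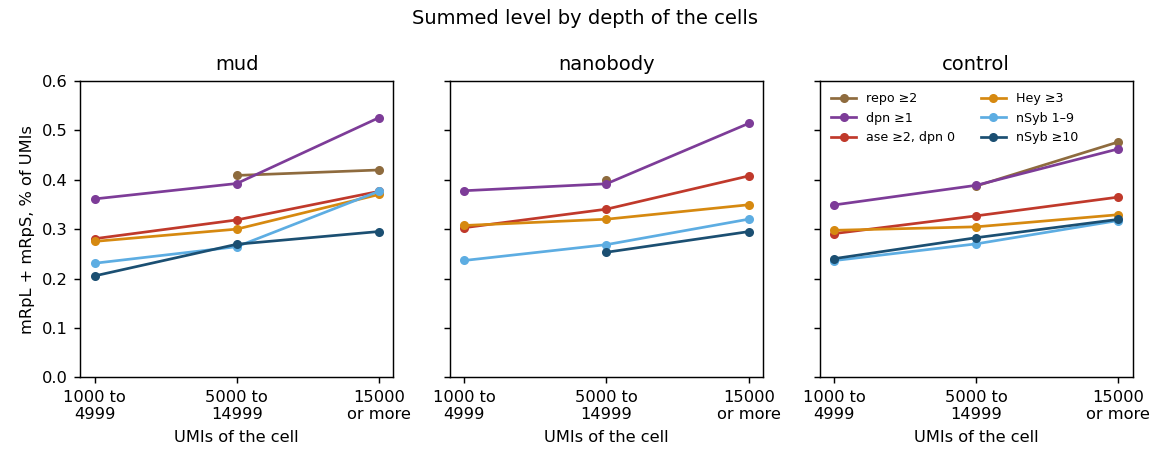
Share of UMIs on the 73 genes, as % of the UMIs of all cells in a bin, by UMIs per cell, with 1 panel per library and 1 line per gate; bins under 20 cells are not drawn. Within gates the deepest bins have the highest shares, and in cells of 5000 to 15000 UMIs the dpn gates, at 0.389 to 0.392%, lie above all nSyb gates.

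mRpL45 (3R 22618492 to 22619826), whose human counterpart anchors the ribosome at the inner membrane, fell most. It had 10.8 CPM in mud, 10.7 in nanobody and 11.3 in control in neurons with nSyb at 10 or more, against 61.0, 56.4 and 49.1 CPM in the dpn gate. The groups stood far apart, and edgeR gave a log2 fold change of -2.05 (adjusted p = 3.5e-09). mRpS14, whose bacterial counterpart lies in the head of the small subunit, had 23.0, 18.4 and 27.8 CPM against 69.7, 70.5 and 71.2 CPM in the dpn gate. Its log2 fold change was -1.33 (edgeR, adjusted p = 1.7e-08), with no overlap.

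Another 4 members fell by more than 1 on this log2 scale. mRpL34 stood at 46.8, 35.9 and 27.8 CPM in these neurons and 138, 94.1 and 72.5 CPM in the dpn gate, in the order mud, nanobody and control (log2 fold change -1.16, edgeR adjusted p = 1.6e-07). mRpL36 stood at 37.6, 38.9 and 46.2 CPM against 99.2, 105 and 113 CPM (-1.08, edgeR adjusted p = 1.7e-09). In both genes all neuron values lay below all dpn values. mRpL43 changed by -1.08 (edgeR, adjusted p = 2.6e-08) and mRpL46, a protein of the central protuberance in mammals, by -1.18 (edgeR, adjusted p = 7.9e-07).

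mRpS5 and mRpS10 were called in the other direction. mRpS5 (3L 24537236 to 24543534) had 312 CPM in mud, 282 in nanobody and 292 in control in neurons with nSyb at 10 or more, against 261, 287 and 235 CPM in the dpn gate. The ranges overlap in CPM, since nanobody did not move upwards. On the TMM scale its log2 fold change was 0.48 (edgeR, adjusted p = 2.7e-05), and on log2 of CPM plus 5 the mean was 0.18 ± 0.18 (SD, n = 3 libraries). mRpS10, in the head of the small subunit, had 42.5, 52.7 and 55.1 CPM against 51.2, 50.5 and 46.9 CPM, with overlap. Its call (log2 fold change 0.30, edgeR adjusted p = 0.0075) was lost with plain library sizes, with no filter on low counts, and without the nanobody or the control library. mRpL48, mRpL3, mRpL2 and mRpS28, the next in order, had log2 fold changes of 0.11 to 0.22, were not called, and changed sign with plain library sizes.

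mRpS5 weighed on the balance of the subunits. The ratio of mRpL to mRpS UMIs was 1.70 in the dpn gate and 1.47 in neurons with nSyb at 10 or more (means of 3 libraries). mRpS5 made up 26.9%, 25.7% and 23.9% of mRpS UMIs in those neurons in mud, nanobody and control, and 14.7%, 16.6% and 14.6% in the dpn gate. Without mRpS5 the ratio was 1.95, 2.04 and 1.91 in those neurons and 1.99, 2.01 and 2.01 in the dpn gate, so the ranges overlapped.

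**Figure D3:**
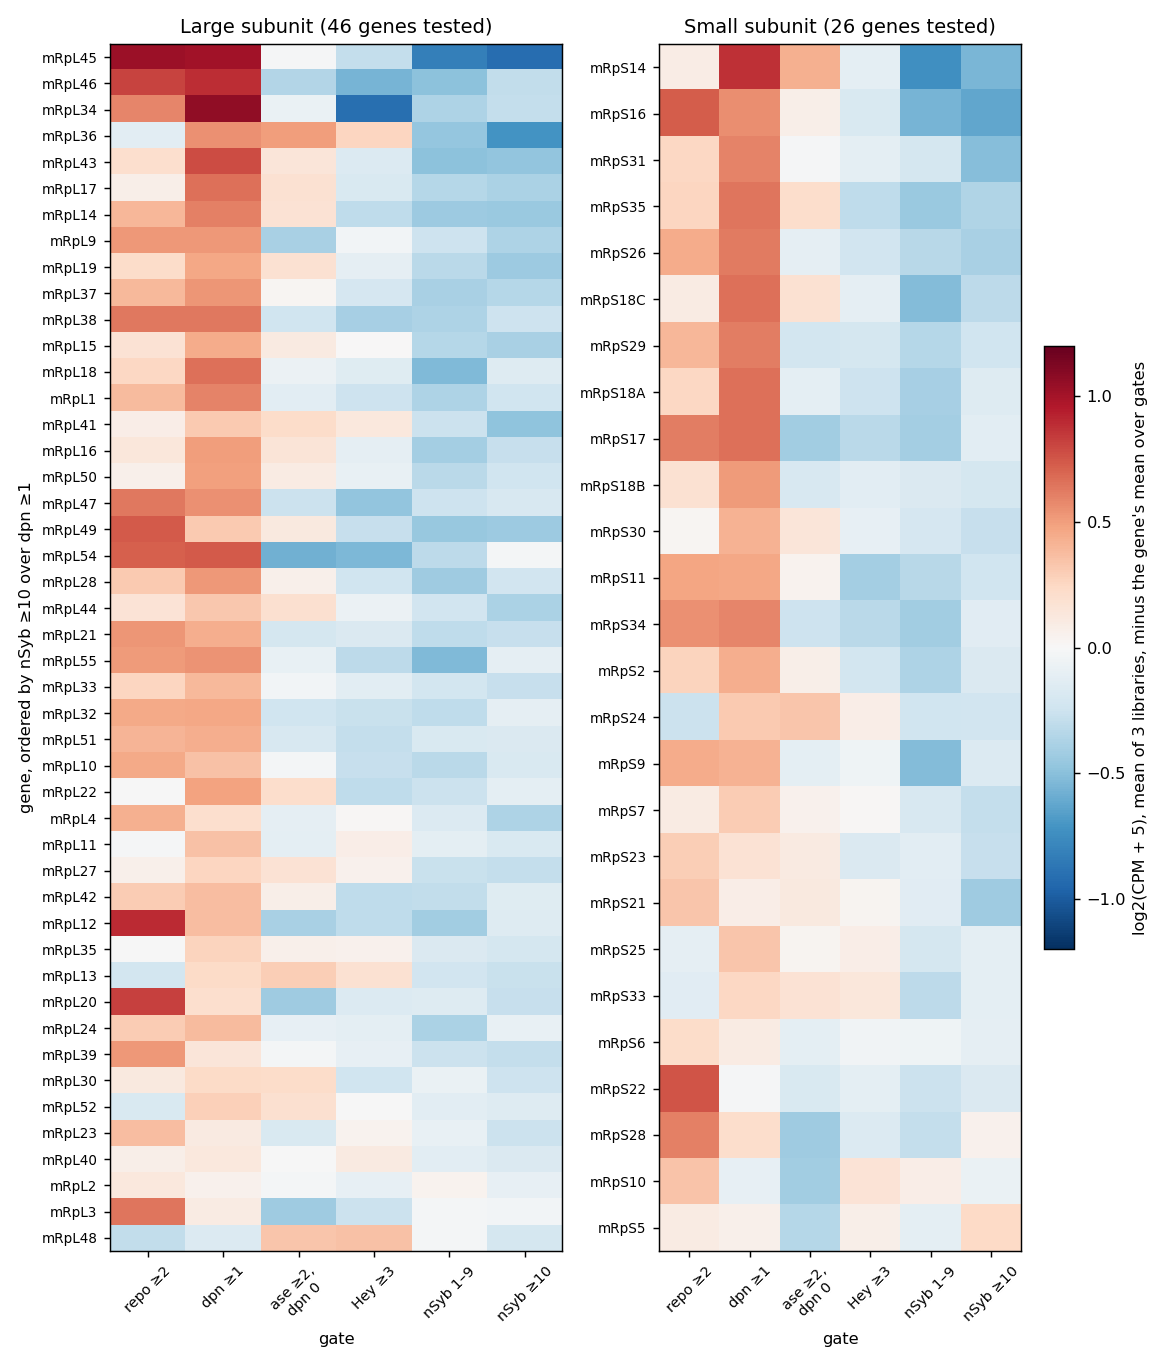
Level of the 72 members tested in each gate, as log2 of mean CPM of 3 libraries plus 5, minus the gene's own mean over the 6 gates; genes are ordered by the edgeR fold change of nSyb at 10 or more over dpn. Most rows are red in the dpn column and blue in the nSyb columns; mRpS5 and mRpS10, at the bottom right, are not.

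The steps between successive gates share sums with each other and are not independent. From the dpn to the ase gate the summed log2 ratio was -0.55 in mud, -0.38 in nanobody and -0.40 in control (mean -0.44 ± 0.09, SD, n = 3 libraries). Of the members, 45 fell and 1 rose, where edgeR called 23.6% of all genes lower and 26.7% higher. mRpL46 had 10.1, 13.9 and 10.97 CPM in the ase gate and 31.5, 33.4 and 37.7 CPM in the dpn gate (-1.40, edgeR adjusted p = 9.9e-07). mRpL54 had 28.4, 26.9 and 16.6 CPM against 83.6, 61.2 and 56.7 CPM (-1.34, edgeR adjusted p = 5.5e-06). mRpL48, which in mammals lies in the central protuberance, was the 1 that rose, with 44.4, 51.9 and 61.1 CPM in the ase gate and 36.0, 34.9 and 36.0 CPM in the dpn gate (0.69, edgeR adjusted p = 0.00034). None of these 3 genes overlapped between the gates. mRpL13, the next highest, was not called (0.22, edgeR adjusted p = 0.056). With plain library sizes 55 members were lower and 1 higher, where 32.5% and 16.7% of all genes were. Without the top 6% of cells by UMIs 20 were lower and 12 higher (27.8% and 16.7%), where 21.6% and 24.0% of all genes were. In cells of 5000 to 15000 UMIs 19 were lower and 9 higher (26.4% and 12.5%), where 21.2% and 20.8% of all genes were. The lower share of members was then near that of all genes, and the higher share lay below theirs. In the ase gate, cells of at least 15000 UMIs were 352 of 3748 in mud, 418 of 3362 in nanobody and 307 of 3938 in control. They made up a larger part of the dpn gate in each library.

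From the ase to the Hey gate the summed log2 ratio was -0.11 ± 0.03 (SD, n = 3 libraries). By subunit it was -0.18 ± 0.03 for mRpL and 0.0003 ± 0.03 for mRpS. Without mRpS5, the ratio of mRpL to mRpS UMIs was 2.02, 2.05 and 2.06 in the ase gate of mud, nanobody and control. In the Hey gate that ratio was 1.90, 1.96 and 1.92, with no overlap. edgeR called 39 members lower, against 24.6% of all genes, and 3 higher, against 21.1%. Those lower were 28 of 46 mRpL and 11 of 26 mRpS genes, and those higher were 1 mRpL and 2 mRpS genes. mRpL34 had 32.9, 21.0 and 13.0 CPM in the Hey gate and 57.5, 41.1 and 30.8 CPM in the ase gate of mud, nanobody and control (-1.08, edgeR adjusted p = 6.5e-06). The genes that rose were mRpS10 (0.55, edgeR adjusted p = 0.00019), mRpL9 (0.33, edgeR adjusted p = 0.0042; not called without control) and mRpS5. mRpS10 had 59.0, 57.6 and 65.0 CPM in the Hey gate against 39.0, 42.2 and 34.7 CPM in the ase gate, with no overlap. mRpS35 fell (-0.72, edgeR adjusted p = 0.00042). With plain library sizes 27 members were lower and 6 higher, where 18.1% and 27.1% of all genes were, and without nanobody 26 were called in all, where 31.8% of all genes were. The gates share cells: 443 of 1389 Hey cells in mud, 463 of 1397 in nanobody and 487 of 1607 in control were also in the ase gate. With cells in 1 gate only, 43 members were lower and 5 higher, where 27.0% and 26.4% of all genes were.

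From the Hey to the nSyb 1 to 9 gate the summed log2 ratio was -0.18 ± 0.04. edgeR called 19 members lower, against 24% of all genes, and 7 higher, against 30.7%. The lower share of members was near that of all genes. With plain library sizes 27 were lower and 2 higher (37.5% and 2.78%), where 30.1% and 26.5% of all genes were. With no library block 8 were lower and 0 higher, where 14.5% and 23.3% of all genes were. mRpL36 had 46.1, 49.2 and 54.5 CPM in the nSyb 1 to 9 gate and 76.6, 87.5 and 92.6 CPM in the Hey gate (-0.69, edgeR adjusted p = 6.1e-07). mRpL34 had its own lowest level in the Hey gate. It rose from 32.9, 21.0 and 13.0 CPM there to 47.8, 32.6 and 22.6 CPM (0.72, edgeR adjusted p = 7.6e-05). Each library moved upwards, although the ranges overlap because mud was high in both gates. mRpS14 fell (-0.65, edgeR adjusted p = 6.7e-05), and mRpL54 rose (0.37, edgeR adjusted p = 0.0498), a call lost under most other settings, including without nanobody or control. Without nanobody 14 members were called, where 39.5% of all genes were.

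Between both nSyb gates the summed log2 ratio was 0.05 ± 0.07 for the gate at 10 or more over the gate at 1 to 9. edgeR called 31 members higher, against 25.2% of all genes, and 1 lower, against 24.7%. mRpL55 had 36.1, 31.9 and 35.0 CPM in the gate at 10 or more and 25.3, 24.5 and 23.2 CPM in the gate at 1 to 9 (0.65, edgeR adjusted p = 5.9e-06), with no overlap. mRpL18 rose too (0.61, edgeR adjusted p = 0.00048), and mRpS31 fell (-0.20, edgeR adjusted p = 0.032), a call lost with DESeq2 and without mud or nanobody. mRpS21 was not called (-0.16, edgeR adjusted p = 0.12). These calls lean on scaling: with plain library sizes 13 members were higher and 6 lower (18.1% and 8.33%), where 19.6% and 39.6% of all genes were. The higher share of members was then no larger than that of all genes, and 66.9% of all calls were lower in place of 49.5%. Without nanobody 20 members were called, where 38.4% of all genes were, and without control 16, where 35.2% were.

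The repo gate held levels near those of the dpn gate. The summed log2 ratio of repo over dpn was -0.23 in mud, -0.09 in nanobody and -0.01 in control (mean -0.11 ± 0.11, SD, n = 3 libraries), about the size of its spread. Without the top 6% of cells by UMIs it was 0.015. edgeR called 17 members lower, against 27.1% of all genes, and 12 higher, against 27.5%, and without mud 17 in all, where 45.03% of all genes were called. mRpS22, a metazoan protein of the small subunit, had 52.4, 46.3 and 46.4 CPM in the repo gate and 29.5, 28.0 and 21.7 CPM in the dpn gate (0.98, edgeR adjusted p = 1.6e-05). mRpL20, which in bacteria acts in early assembly of the large subunit, had 68.0, 79.7 and 84.5 CPM against 52.8, 51.3 and 41.8 CPM (0.77, edgeR adjusted p = 2.6e-05). Neither gene overlapped between the gates. mRpS14 fell (-0.78, edgeR adjusted p = 0.00014), as did mRpL36 (-0.62, edgeR adjusted p = 1.2e-05). The repo gate held 107, 59 and 89 cells.

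Between neurons with nSyb at 10 or more and the dpn gate, summed cytoplasmic ribosomal protein RNA had a log2 ratio of -0.65 ± 0.10, the mitochondrially encoded genes -0.59 ± 0.08 and the nuclear respiratory genes -0.10 ± 0.11 (SD, n = 3 libraries). edgeR called 77 of 87 cytoplasmic ribosomal protein genes lower and 1 higher. It called 6 of 66 nuclear respiratory genes lower and 32 higher. Over all genes, 36.9% were called lower and 42.2% higher. These calls are on the TMM scale, whereas the sums are on plain CPM. On the TMM scale the median log2 fold change of the nuclear respiratory genes was 0.16, opposite in sign to their sum. Calls in these lists were not counted with plain library sizes. Of genes that maintain mitochondrial DNA and RNA, 9 of 10 fell. Of mitochondrial translation factors, 4 of 10 fell and 2 rose, and of mitochondrial tRNA synthetases 4 of 15 fell and 3 rose. Of 9 import genes 3 fell and 2 rose, of 13 mitochondrially encoded genes 4 fell, and of 8 nucleolar and growth genes 7 fell and 1 rose. The lower shares of translation factors, tRNA synthetases, import genes and mitochondrially encoded genes were near or under that of all genes. The small-subunit genes tko and bonsai, which carry other names, went apart, with log2 fold changes of 0.96 and -0.95 (edgeR, adjusted p = 5.6e-08 and 7.6e-07).

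From dpn to ase, the mitochondrial ribosomal protein sum changed by -0.44 and the cytoplasmic one by 0.02 ± 0.06, both on plain CPM. On the TMM scale 59 of 87 cytoplasmic genes were called higher and 4 lower, against 26.7% and 23.6% of all genes. Their median log2 fold change on that scale was 0.16. Between both nSyb gates, 62 of 66 nuclear respiratory genes rose, against 25.2% of all genes, with a summed log2 ratio of 0.33 ± 0.10. In repo over dpn, 79 of 87 cytoplasmic ribosomal protein genes and 10 of 13 mitochondrially encoded genes rose, against 27.5% of all genes. The mitochondrially encoded sum was not alike in all libraries, with 19986 CPM in mud, 25581 in nanobody and 13169 in control in the repo gate, against 14815, 16991 and 14995 CPM in the dpn gate, so control went the other way (mean log2 ratio 0.28 ± 0.41, SD, n = 3 libraries). Differences between the groups were not tested.

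**Figure D4:**
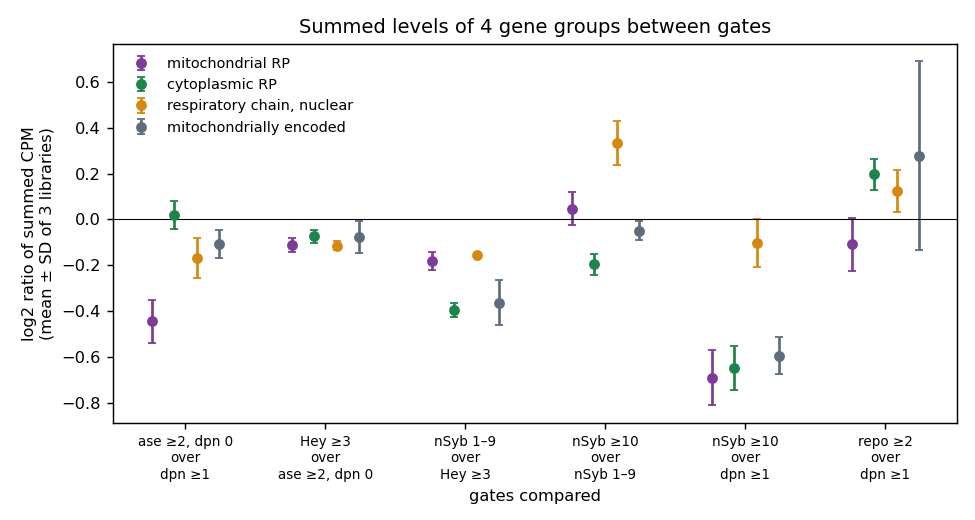
Log2 ratio of summed CPM between gates for 4 gene groups; points are means and bars SD over 3 libraries, and ratios share gates. The mitochondrial ribosomal protein sum lies apart from the cytoplasmic one in ase over dpn, at -0.44 and 0.02, and the nuclear respiratory sum stands at 0.33 in the last neuronal step.

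Between genotypes there was 1 library each, so no test was possible, and intervals cover counting error only. Over all called cells the group summed to 3153 CPM in mud (95% Poisson interval 3143 to 3164), 3224 CPM in nanobody (3214 to 3235) and 3123 CPM in control (3112 to 3133). The log2 ratios over control were 0.01 for mud and 0.05 for nanobody. In the dpn gate they were 0.14 and 0.08, but the median share per cell there was 0.408% in mud, 0.404% in nanobody and 0.406% in control. For mud in both, and for nanobody in the dpn gate, the sign changed under at least 1 other setting, and no direction is read here.

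Single members differed more. In mud, 6 of 72 members stood at least 0.32 above control on log2 of CPM plus 5, against 11.2% of all genes, and 4 stood as far below, against 8.48%. In nanobody, 2 stood above, against 4.27%, and 1 below, against 2.93%. Both comparisons use the same control library, and the members' shares did not exceed those of all genes. In the dpn gate 10 were above and 1 below in mud, against 16.5% and 9.97%, and 2 above and 1 below in nanobody, against 7.6% and 2.64%.

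mRpL34 (2R 16098948 to 16099337), a very small protein of the large subunit, stood at 56.2 CPM in mud, 38.2 in nanobody and 27.5 in control over all cells. The log2 ratios over control were 0.92 for mud and 0.41 for nanobody, and mud exceeded nanobody and nanobody exceeded control in each gate except repo. mRpL33 (X 4321764 to 4322231) stood at 109 CPM in mud, 97.3 in nanobody and 67.4 in control, with log2 ratios of 0.66 and 0.50, and kept that order in all 6 gates. In the dpn gate it had 164, 129 and 98.2 CPM.

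Other members were lower than in control. mRpL13 had 40.1 CPM in mud, 48.2 in nanobody and 56.2 in control, with a log2 ratio of -0.44 for mud. mRpL35 had 31.4 CPM in mud, 34.1 in nanobody and 43.1 in control, with -0.40 for mud and -0.30 for nanobody. mRpS6, whose bacterial counterpart lies in the platform of the small subunit, had 40.0 CPM in mud, 35.0 in nanobody and 47.0 in control, with -0.38 for nanobody. In every gate, mRpL13 and mRpL35 stood lower in mud than in control and mRpS6 lower in nanobody than in control.

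**Figure D5:**
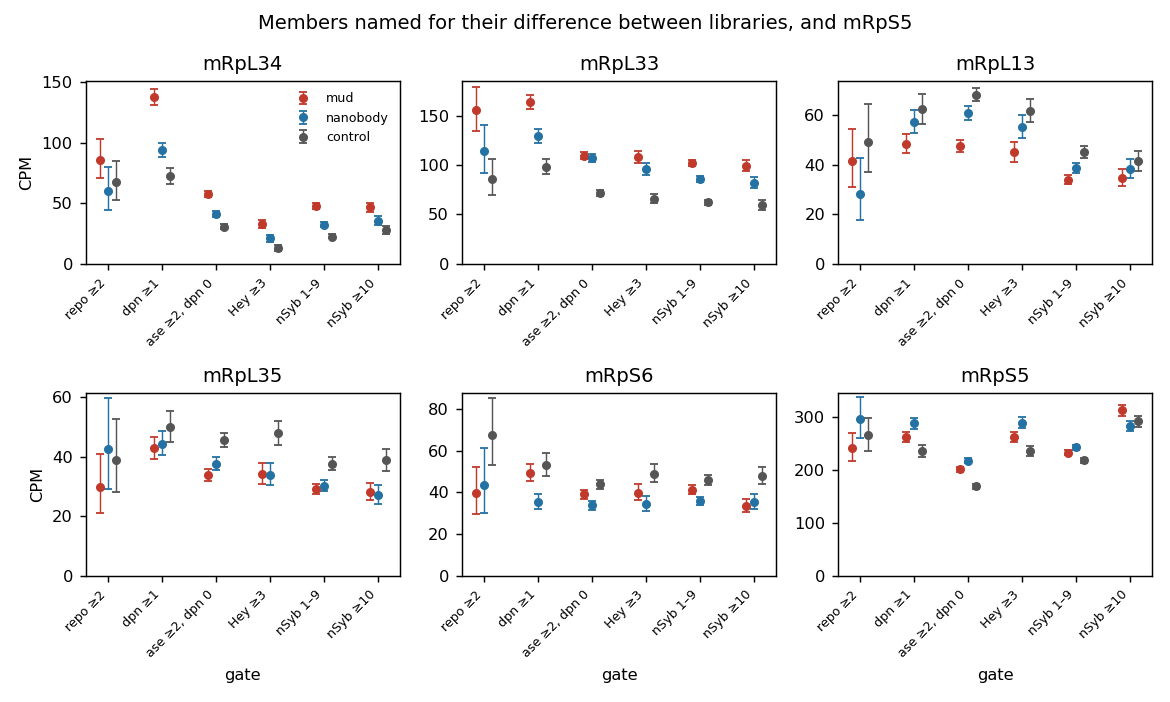
CPM of 5 members named for their difference between libraries, and of mRpS5, in each gate and in mud, nanobody and control; error bars are exact 95% Poisson intervals, for counting error only. mRpL34 and mRpL33 are highest in mud in the dpn gate, at 138 and 164 CPM, and mRpL34 is lowest in the Hey gate in each library.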

How the data were processed

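The deposited matrices hold raw UMI counts per gene and barcode for 3 larval-brain libraries, written by Cell Ranger 9.0.1 per the file headers. Every observed barcode was kept by the authors, and no normalization had been applied. The submitters' processing notes also name Seurat. Build, annotation and intron setting are not given in the sources used here. Coordinates are from Ensembl release 115 (BDGP6.54), joined on FlyBase IDs, of which 13976 matched, all 73 members included.

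Cells were called and gated as described, and counts were summed per gate and library. No doublet caller was run, and doublets were not removed. Leaving out the top 6% of cells by UMIs, and cells in several gates, was tried instead. CPM are counts per 1000000 UMIs of the gate. Gates were compared with edgeR 4.0.16 (quasi-likelihood, TMM, filterByExpr, library as block), and genotype ratios used log2 of CPM plus 5 for genes with at least 10 CPM in either library. In simulated counts for nSyb at 10 or more over dpn (7773 genes), 50 of 50 genes were recovered at a fold of 2 and of 0.5, but 38 of 50 at 1.5 and 31 of 50 at 0.667, with 4 of 7573 unchanged genes called. The simulation gave all gates 1 profile apart from these well-counted genes, with 1 dispersion and no library effect on genes. In the real contrast 36.9% of genes were called lower and 42.2% higher, so these rates need not carry over to it.

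Poisson intervals are 95% and cover counting error only. Members named with their levels or fold changes are the highest and lowest by level, by fold change in each contrast and by genotype ratio. mRpS17 and mRpS11 were named only for a neighbouring gene. Members and lists were chosen with earlier results of these data known. DESeq2 1.42.0, other scalings, cell limits and gates were alternatives. All libraries carry the same batch label. With 1 library per genotype, preparation cannot be told apart from genotype.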

Additional observations from a re-analysis of the deposited data

Results flagged for a closer look

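The summed mitochondrial ribosomal protein ratio over control differed in sign between gates, but several values were small. For mud, the log2 ratio was 0.135 in the dpn gate, 0.024 in the Hey gate and 0.034 in the nSyb 1 to 9 gate, but -0.012 in the ase gate, -0.086 in the gate with nSyb at 10 or more and -0.091 in the repo gate. For nanobody, it was 0.080 in the dpn gate, 0.102 in the ase gate, 0.077 in the Hey gate and 0.014 in the nSyb 1 to 9 gate, but -0.116 in the gate with nSyb at 10 or more. Ratios of the median share per cell did not keep all of these signs. For mud they were 0.005 in the dpn gate, -0.049 in the Hey gate and -0.038 in the nSyb 1 to 9 gate. The ase gate of mud gave -0.051, the gate with nSyb at 10 or more -0.071 and the repo gate -0.092. For nanobody the dpn gate gave -0.008. No direction is read from these signs. Each value rests on 1 library per genotype, both genotypes share the control library, and the difference between gates was not tested.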

How the results depend on the processing

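No paired analysis was possible because each genotype has 1 library, for the comparisons between genotypes. Contrasts between gates had the library as block. Between gates, leaving out the top 6% of cells by UMIs moved the summed log2 ratio to -0.25 (ase over dpn), -0.54 (nSyb at 10 or more over dpn) and 0.015 (repo over dpn), and cells of 5000 to 15000 UMIs gave -0.25, -0.54 and 0.027; that window and the removal of hemocyte-marked cells were chosen after seeing the data. Cells in 1 gate only gave -0.16 (Hey over ase) and -0.23 (nSyb 1 to 9 over Hey), per-cell means -0.22 for the second, and a denominator without mitochondrially encoded and cytoplasmic ribosomal genes -0.29 for it and -0.86 for nSyb at 10 or more over dpn.

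Members called without a library block were 26 (Hey over ase), 8 (nSyb 1 to 9 over Hey) and 16 (nSyb at 10 or more over nSyb 1 to 9), where 27.5%, 37.8% and 30.9% of all genes were called. The last was 19 with plain library sizes and 21 with no filter (59.2% and 34.1% of all genes). Cells with 3 or more hemocyte-marker UMIs were 25 in mud, 49 in nanobody and 18 in control, with 2, 2 and 1 in the Hey gate. Without them 35 members were lower and 3 higher for Hey over ase, where 24.4% and 21.0% of all genes were. For nSyb 1 to 9 over Hey 23 were then lower and 2 higher, where 27.8% and 28.0% of all genes were. Leaving out single libraries gave 26 to 37 members for Hey over ase, where 30.4% to 37.2% of all genes were called. For nSyb 1 to 9 over Hey it gave 14 to 20 members, where 39.5% to 49.03% of all genes were. Between both nSyb gates it gave 16 to 24 members, where 35.2% to 38.4% of all genes were. For repo over dpn it gave 17 to 24 members, where 45.03% to 51.8% of all genes were. Without the top 6%, 40 were called for nSyb at 10 or more over dpn (74.99% of all genes). In cells of 5000 to 15000 UMIs, 28 were called for ase over dpn (42.0% of all genes) and 17 for repo over dpn, 5 lower and 12 higher (22.3% and 21.7% of all genes).

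The sum for mud over control in all cells changed sign, to -0.039 without the top 6%, -0.038 in the UMI window, -0.031 by per-cell means and -0.035 thinned to 1000 UMIs. For nanobody it was 0.029 without the top 6%, 0.0095 in the window and 0.0057 with TMM sizes. In the dpn gate mud gave 0.020 without the top 6%, 0.013 in the window, 0.031 by per-cell means, -0.066 thinned and 0.11 with the other denominator. Nanobody gave 0.040, 0.011, 0.023, -0.012 and 0.051 in the same order, and 0.041 with TMM sizes. At 1.5-fold, 2 members were past the limit in mud and 0 in nanobody, and 6 in nanobody with a pseudocount of 1 CPM. Where values moved, the cause was not tested. Low UMI counts limit the repo gate.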
